A study of Homo sapiens with 2 samples.

Results

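The 33 genes described here were the small nucleolar RNA (snoRNA) host genes and their close relatives among 60664 genes listed in the deposited count tables of HEK293T cells. They were every gene whose symbol is SNHG followed by a number, together with GAS5, ZFAS1, EPB41L4A-AS1, DANCR and MEG8, and this rule uses no expression value. HEK293T is a human cell line of embryonic kidney origin that carries the SV40 large T antigen. Both libraries came from untreated, WT HEK293T cells and form 1 group, so the study holds no contrast between conditions. The cell line and source labels of replicate 2 read HEK294T while its title reads HEK293T, and it was treated as HEK293T. Nothing in the labels says that separate cultures were used, so differences between the 2 libraries may be technical.

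A snoRNA is a short nuclear RNA that guides chemical modification of other RNAs, mainly ribosomal RNA. Box C/D snoRNAs (SNORD genes) guide 2′-O-methylation and box H/ACA snoRNAs (SNORA genes) guide pseudouridylation, while scaRNAs (SCARNA genes) act in Cajal bodies on spliceosomal RNAs. In human cells most of them are cut out of introns of a host transcript after splicing. In the SNHG class the spliced host is a long noncoding RNA (lncRNA), and the spliced RNA of hosts such as GAS5 and SNHG1 is known to be degraded by nonsense-mediated decay when it is translated. Many hosts belong to the 5′ terminal oligopyrimidine class, whose transcripts begin with a C followed by a run of C and T, as those of ribosomal protein genes do.

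RNA was extracted with TRIzol, treated with DNase I and copied into cDNA from an oligo(dT) primer. The remaining RNA and primers were then removed with mung bean nuclease before a single-strand ligation library was built. An oligo(dT) primer favours RNA with a poly(A) tail, which spliced hosts carry and processed snoRNAs lack, so the counts describe hosts better than snoRNAs. Library totals were 18011638 counts in replicate 1 and 18575058 in replicate 2. Taking 3 counts as the limit that a count of 0 allows, such a count stands for up to 0.167 counts per 1000000 library counts (CPM) in replicate 1 and 0.162 CPM in replicate 2. Markers of the HEK293T lineage were present, with 5 of 5 detected and UCHL1, a neuronal hydrolase, at 334 ± 5.81 TPM (counts per exonic base, scaled to a sum of 1000000 in each library). Of 8 markers of other cells 1 was detected, EPCAM at 3.93 ± 0.693 TPM, and the immune marker PTPRC had 0 and 1 counts. HBB, a globin gene of red cells, had 0 counts in replicate 1 and 38 in replicate 2, and its part in the differences between libraries was not tested. Errors written with ± are SDs over the 2 libraries (n = 2), and intervals in brackets are exact (Clopper-Pearson) 95% binomial intervals that cover counting error only.

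Sequences of snoRNAs from 4 hosts show what these genes carry, chosen because their counts or those of their hosts are described below. In a box C/D snoRNA the C box, searched as TGATGA in the first 20 bases, and the D box, searched as CTGA in the last 12 bases, pair with each other. In a box H/ACA snoRNA an ACA triplet stands near the 3′ end and was searched in the last 7 bases. The runs below are from the GENCODE 29 transcripts (GRCh38), written 5′ to 3′ on the strand of the gene, with these boxes in capitals. SNORD25 (chr11:62855564-62855632, minus strand) and SNORD27 (chr11:62855012-62855083, minus strand) lie in SNHG1. SNORD49A (chr17:16440036-16440106, plus strand) and SNORD49B (chr17:16439505-16439576, plus strand) lie in SNHG29. SNORD104 (chr17:64146083-64146152, plus strand) lies in the intron of SNHG25, and SNORA61 (chr1:28579764-28579893, minus strand) lies in SNHG12.
SNORD25: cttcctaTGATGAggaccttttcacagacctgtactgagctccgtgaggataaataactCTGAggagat
SNORD27: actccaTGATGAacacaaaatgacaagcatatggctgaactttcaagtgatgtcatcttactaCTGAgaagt
SNORD49A: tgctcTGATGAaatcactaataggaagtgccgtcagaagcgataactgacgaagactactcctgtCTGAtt
SNORD49B: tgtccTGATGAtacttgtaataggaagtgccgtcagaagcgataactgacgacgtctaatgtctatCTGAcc
SNORD104: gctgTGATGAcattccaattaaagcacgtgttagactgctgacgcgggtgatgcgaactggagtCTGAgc
SNORA61: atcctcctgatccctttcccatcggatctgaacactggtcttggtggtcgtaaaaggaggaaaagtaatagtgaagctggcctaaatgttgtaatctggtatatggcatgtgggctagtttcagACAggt

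Both boxes were found in 115 of 150 SNORD genes within the hosts, and in 14 of the 26 that lie outside SNHG14 and MEG8. The ACA triplet was found in 22 of 25 SNORA genes with a sequence. Entries without a match may carry a variant box or annotated ends that differ from these windows, so the search describes letters and not function. The RefSeq annotation of GRCh38.p14 places 197 snoRNA and scaRNA genes within 32 of the 33 hosts, and 16 hosts hold exactly 1. SNHG27 holds none there. SNHG14 holds 83 and MEG8 holds 46, while GAS5 holds 11, SNHG1 holds 9, SNHG17 holds 5 and SNHG12 holds 4.

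Most hosts were expressed. Counts reached 1 CPM or more in both libraries for 27 of the 33 genes (81.8%), against 27.7% of all genes and 16.3% of the 15842 lncRNA genes of GENCODE 29. At 100 CPM or more in both libraries there were 11 hosts. Of these, 10 were among the 71 lncRNA genes at that level, and the other, SNHG32, is typed as protein-coding in GENCODE 29. The hosts together took 0.324% (0.321 to 0.326) of the counts in replicate 1 and 0.322% (0.320 to 0.325) in replicate 2, a mean of 0.323% ± 0.000885. Over all 33 genes the median level was 28.6 TPM, with 28.1 TPM in replicate 1 and 29.1 TPM in replicate 2. Detected hosts had a median of 46.9 TPM, against 6.61 TPM for detected lncRNA genes and 8.44 TPM for all detected genes. These medians describe the genes that passed the 1 CPM threshold and are not a test.

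Counts were concentrated in a few hosts. The 3 most counted, GAS5, SNHG29 and SNHG5, held 40.2% of the hosts' counts in replicate 1 and 41.6% in replicate 2, and the 10 most counted held 79.2% and 80.1%. Because overlap can add counts to a gene, hosts were also ranked among 13030 lncRNA genes that share under 25% of their exonic bases with another gene. Of the 33 hosts 23 are in that set. On GRCh38, GAS5 lies at chr1:173858559-173868882 (minus strand, 4 exon blocks), SNHG29 at chr17:16438767-16478678 (plus strand, 7 blocks), SNHG5 at chr6:85650491-85678932 (minus strand, 6 blocks) and ZFAS1 at chr20:49278178-49299600 (plus strand, 7 blocks). SNHG1, at chr11:62851984-62855953 (minus strand), merges into 1 block over all its annotated transcripts, so its snoRNA genes count as lying inside exons. GAS5 ranked 3 there, SNHG29 ranked 4, SNHG5 ranked 6, SNHG1 ranked 11, SNHG3 ranked 15 and SNHG15 ranked 20. The 23 hosts held 11.3% of the counts of that set in replicate 1 and 11.2% in replicate 2, and the detected ones had a median of 42.9 CPM against 3.74 CPM for the other detected genes of the set. The set limits shared bases and not shared counts, and SNHG5 and SNHG3 stayed in it beside more strongly counted overlapping genes. Among all 15842 lncRNA genes GAS5 ranked 18, SNHG29 ranked 19 and SNHG5 ranked 24. Hosts typed as lncRNA held 4.49% of the counts of those genes in replicate 1 and 4.29% in replicate 2.

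**Figure D1:**
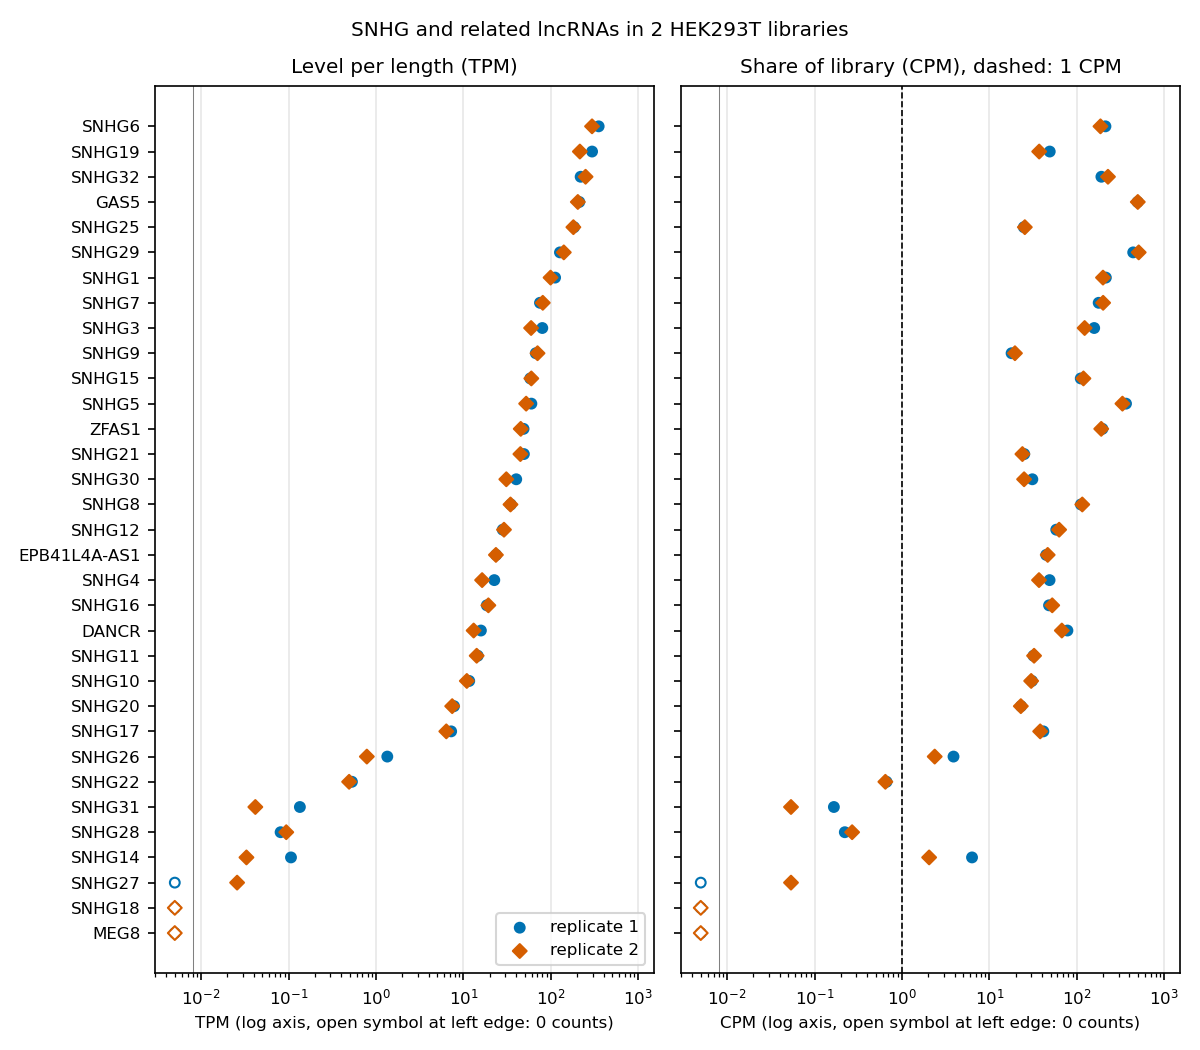
Level of each of the 33 hosts in both libraries, as TPM (left) and as CPM (right) on log axes, with circles for replicate 1, diamonds for replicate 2 and open symbols for 0 counts. Hosts are ordered by mean TPM. The left panel falls steadily to SNHG17 at 6.80 TPM and then drops to SNHG26 at 1.07 TPM, and in the right panel the short genes SNHG19, SNHG25 and SNHG9 lie well to the left of their neighbours in the order.

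Hosts of box C/D snoRNAs alone, 11 genes by the RefSeq names, held 54.1% of the hosts' counts in replicate 1 and 54.6% in replicate 2. Their median was 55.9 TPM, against 23.6 TPM for 11 hosts of box H/ACA snoRNAs alone and 9.45 TPM for 4 hosts of a scaRNA alone. These groups span wide ranges that overlap, 0 to 324 TPM, 0.0882 to 77.9 TPM and 0.512 to 46.9 TPM, so the medians are given as a description.

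SNHG29, host of SNORD49A, SNORD49B and SNORD65, had 7943 counts (441 CPM, 127 TPM) in replicate 1 and 9470 counts (510 CPM, 140 TPM) in replicate 2. SNHG5, host of SNORD50A and SNORD50B, had 6573 counts (365 CPM, 59.8 TPM) in replicate 1 and 6170 counts (332 CPM, 52.1 TPM) in replicate 2. SNHG1, which was described as the host gene of U22 and holds SNORD22 and SNORD25 to SNORD31, had 3867 counts (112 TPM) in replicate 1 and 3697 counts (99.1 TPM) in replicate 2. By counts SNHG29 and SNHG5 stood above SNHG1 in both libraries, while per deposited length SNHG5 was the lowest of these 3. SNHG6, host of SNORD87, had 3825 counts in replicate 1 and 3460 in replicate 2 and the highest deposited-length level of all hosts, 324 ± 39.8 TPM. SNHG32, host of SNORD48 and SNORD52, had 3438 and 4215 counts, a mean of 234 ± 21.4 TPM. ZFAS1, named as the antisense RNA of ZNFX1 and host of the SNORD12 family, had 3531 counts in both libraries and 46.9 ± 2.46 TPM. The equal counts of ZFAS1 came from libraries of unequal size, which gave 196 CPM in replicate 1 and 190 CPM in replicate 2.

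SNHG19, host of SNORD60, had 882 counts (296 TPM) in replicate 1 and 689 counts (214 TPM) in replicate 2, so it ranked 2 per length and 16 by CPM. SNHG16, host of SNORD1A, SNORD1B and SNORD1C, had 866 and 971 counts (18.9 ± 0.538 TPM), and SNHG30, host of SNORD7, had 558 and 463 counts (35.5 ± 6.51 TPM). The lowest box C/D hosts were SNHG26 (SNORD93), with 70 and 44 counts, and SNHG18 (SNORD123), with 0 counts in both libraries. SNHG26 was above 1 CPM in both libraries, at 3.89 CPM in replicate 1 and 2.37 CPM in replicate 2.

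Among hosts of box H/ACA snoRNAs, SNHG7 (SNORA17A and SNORA17B) had 3200 counts (75.0 TPM) in replicate 1 and 3710 counts (80.7 TPM) in replicate 2. SNHG3, the U17 host gene that holds SNORA73A and SNORA73B, had 2843 counts (79.7 TPM) in replicate 1 and 2280 counts (59.4 TPM) in replicate 2. SNHG15 (SNORA9) had 1996 and 2209 counts, at 58.9 ± 1.13 TPM. The libraries order SNHG7 and SNHG3 differently per length, so these 2 did not differ beyond their spread. SNHG8 (SNORA24) had 2004 and 2142 counts and 34.6 ± 0.185 TPM. DANCR (SNORA26), an RNA known for keeping epidermal progenitor cells undifferentiated, had 1405 and 1251 counts and 14.5 ± 1.94 TPM. SNHG9 (SNORA78), with 323 and 364 counts on 551 exonic bases, reached 68.8 ± 2.20 TPM and so stood above DANCR per deposited length. With the longest transcript without a retained intron as length the order was reversed, at 57.3 TPM for SNHG9 and 116 TPM for DANCR.

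EPB41L4A-AS1 (SNORA13) had 804 and 862 counts (23.6 ± 0.0751 TPM), and SNHG4 (SNORA74A and SNORA74D) had 878 and 686 counts (19.4 ± 4.37 TPM). SNHG17 (the SNORA71 family) had 746 and 707 counts (6.80 ± 0.614 TPM), and SNHG11 (SNORA60 and SNORA71E) had 575 and 602 counts at a mean of 14.4 TPM. SNHG31 (SNORA70I) was the 1 undetected host of this class, with 3 counts in replicate 1 and 1 in replicate 2.

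The hosts of both kinds were GAS5, SNHG12 and SNHG25. GAS5 stands here because of 1 SNORA gene, SNORA103, beside 10 SNORD genes, so the box C/D group above leaves it out. The RefSeq genes were placed by position without regard to strand. GAS5, a growth-arrest-associated transcript whose RNA is also known as a decoy of the glucocorticoid receptor, was the most counted host, with 8924 counts (495 CPM, 211 TPM) in replicate 1 and 9242 counts (498 CPM, 203 TPM) in replicate 2. SNHG12 had 1047 and 1165 counts (28.6 ± 0.660 TPM). SNHG25 had 446 and 472 counts on 278 exonic bases, which gave 182 ± 2.26 TPM. GAS5 and SNHG25 lay next to each other in the order of TPM although their counts differed widely, and their ranges over the libraries did not meet.

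The scaRNA hosts had few counts. SNHG10 (SCARNA13) had 552 and 558 counts (11.3 TPM), SNHG21 (SCARNA15) had 451 and 443 counts (46.9 ± 3.05 TPM), and SNHG20 (SCARNA16) had 414 and 425 counts (7.61 TPM). SNHG22 (SCARNA17) had 12 counts in each library and was not detected at 1 CPM. SNHG28, whose only RefSeq snoRNA locus has no family name, had 4 and 5 counts, and SNHG27 had 0 and 1 counts.

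SNHG14 and MEG8 are imprinted hosts of long snoRNA arrays. SNHG14 is expressed from the paternal chromosome at the Prader-Willi and Angelman locus, carries the SNORD115 and SNORD116 arrays and extends antisense to UBE3A. It had 114 counts (6.33 CPM) in replicate 1 and 38 counts (2.05 CPM) in replicate 2, over 122609 exonic bases, or 0.0698 ± 0.0520 TPM. SNRPN, PWAR1 and PWAR5, which share exonic bases with SNHG14 on the same strand, had 0 counts in both libraries. MEG8 is maternally expressed from the imprinted DLK1-DIO3 region on chromosome 14 and carries the SNORD113 and SNORD114 arrays. It had 0 counts in both libraries, as did MEG3, its neighbour in that region. The 84 SNORD genes listed in the files within SNHG14 had 0 counts in replicate 1 and 3 in replicate 2, and the 40 within MEG8 had 1 and 0.

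Neighbours at the top of the order per length were not apart: the ranges over the libraries of SNHG6 (295 to 352 TPM) and SNHG19 (214 to 296 TPM) overlap, as do those of SNHG19 and SNHG32 (219 to 249 TPM). The order of hosts per length also depends on which length is used. The deposited length is the union of all annotated exons of a gene, including retained introns, and it was a median of 2.08 times the longest transcript without a retained intron, ranging over the hosts from 1 to 12.2 times. SNHG5 and SNHG17 (12.2 times each), DANCR (11.3 times), SNHG8 (9.83 times), SNHG14 (9.38 times) and ZFAS1 (7.73 times) had the largest ratios among detected hosts. With that shorter length, an alternative added after the data were seen, GAS5 led at 710 TPM, followed by SNHG29 at 569 TPM, SNHG5 at 486 TPM and SNHG6 at 443 TPM. SNHG19, whose length does not change, then ranked 9 instead of 2, and 7 of the 10 highest hosts were shared with the order by deposited length. The order by CPM also starts with GAS5, SNHG29 and SNHG5. Which transcripts the cells made cannot be read from gene counts, so levels between hosts are given on both scales.

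**Figure D2:**
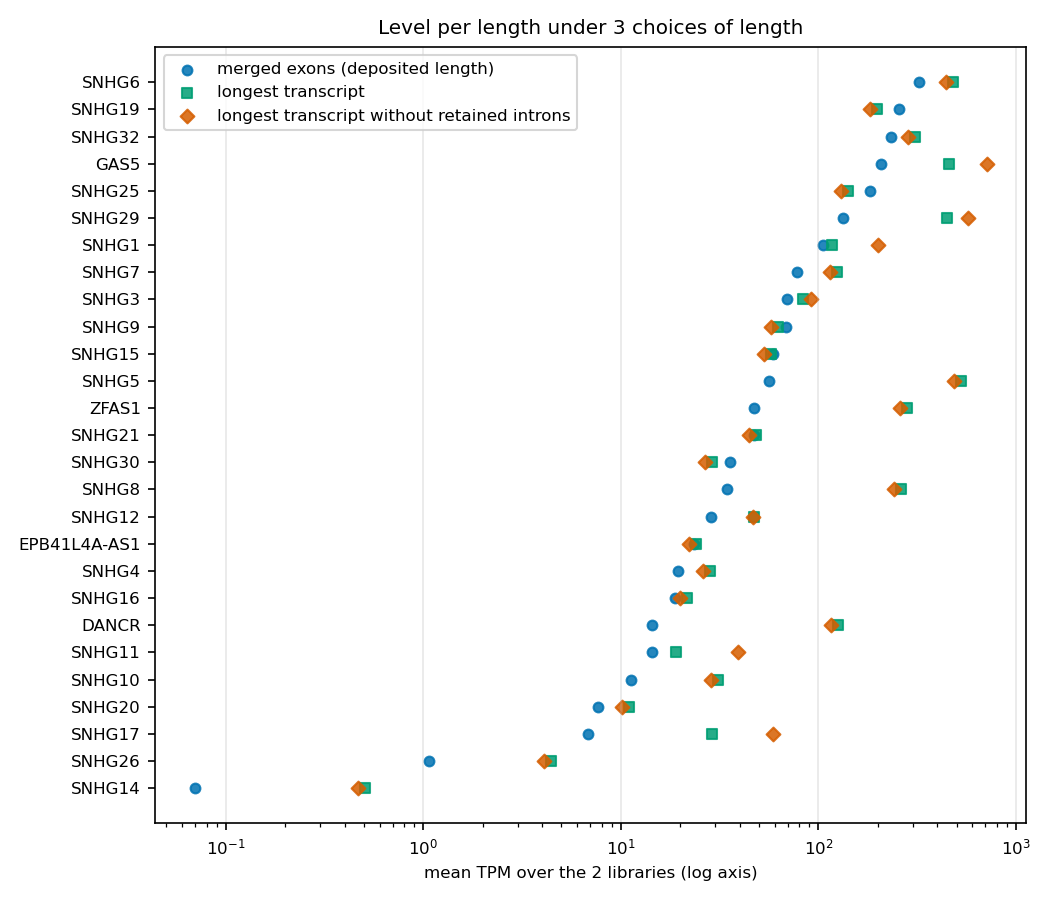
Mean TPM of the 27 detected hosts on a log axis, with the deposited merged exon length (circles), the longest transcript (squares) and the longest transcript without retained introns (diamonds). Hosts are ordered by the deposited length. SNHG5, ZFAS1, SNHG8 and DANCR lie far to the right under both transcript lengths, while SNHG19 and SNHG25 lie slightly to the left.

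Exon overlap was frequent. Of the 33 hosts 10 (30.3%) shared 25% or more of their exonic bases with another gene, against 12.2% of all genes (7374), and the median share was 11.5%. The sources used here do not give the counting settings on strand and overlap. SNORA16A, inside SNHG12, is listed as 2 entries of the same locus with 30 and 55 counts in each. Fragments there were therefore counted for each entry, which does not tell whether strand was used. Counts in shared bases may thus belong to either gene or to both. Of the hosts 18 overlap a gene on the opposite strand, and 5 overlap only genes with a snoRNA symbol. SNHG25 overlaps only SNORA50C and ENSG00000281311, which is typed as snoRNA but has no such symbol. SNHG19, SNHG18, SNHG27 and SNHG31 share no exonic base. The largest shares were those of SNHG28 (90.8%), SNHG21 (72.9%) and EPB41L4A-AS1 (56.4%).

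For hosts that overlap a weakly counted gene the overlap can add little. If each overlapping gene were counted with every shared fragment, the counts of all overlapping genes set an upper limit on the shared part. For EPB41L4A-AS1, which shares 2200 bases with the opposite-strand gene EPB41L4A (135 and 150 counts), that limit was 16.8% of its counts in replicate 1 and 17.4% in replicate 2. For SNHG8, whose exons share 2487 bases with PRSS12 on the opposite strand (129 and 121 counts), it was 8.43% and 7.98%. It was 22.04% and 21.98% for GAS5, 1.40% and 2.22% for SNHG15, and 1.39% and 1.33% for SNHG11. These hosts therefore kept most of their counts under that reading.

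Other hosts overlap strongly counted genes, and there the limit is of no use. SNHG3 shares 242 bases with RCC1 on the same strand (4153 and 4673 counts), and SNHG4 shares 626 bases with MATR3 (6641 and 4552 counts). SNHG5 shares 943 bases with ENSG00000271793, a same-strand gene with 8469 and 8174 counts. For these 3 hosts the overlapping genes held more counts than the host, so how many of the counts are theirs cannot be told apart. SNHG7 shares 1480 bases with DIPK1B (2106 and 2081 counts), SNHG32 shares 418 bases with ENSG00000285565 (2618 and 3200 counts), and SNHG14 shares 1822 bases with UBE3A (605 and 410 counts, above the 114 and 38 counts of SNHG14).

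**Figure D3:**
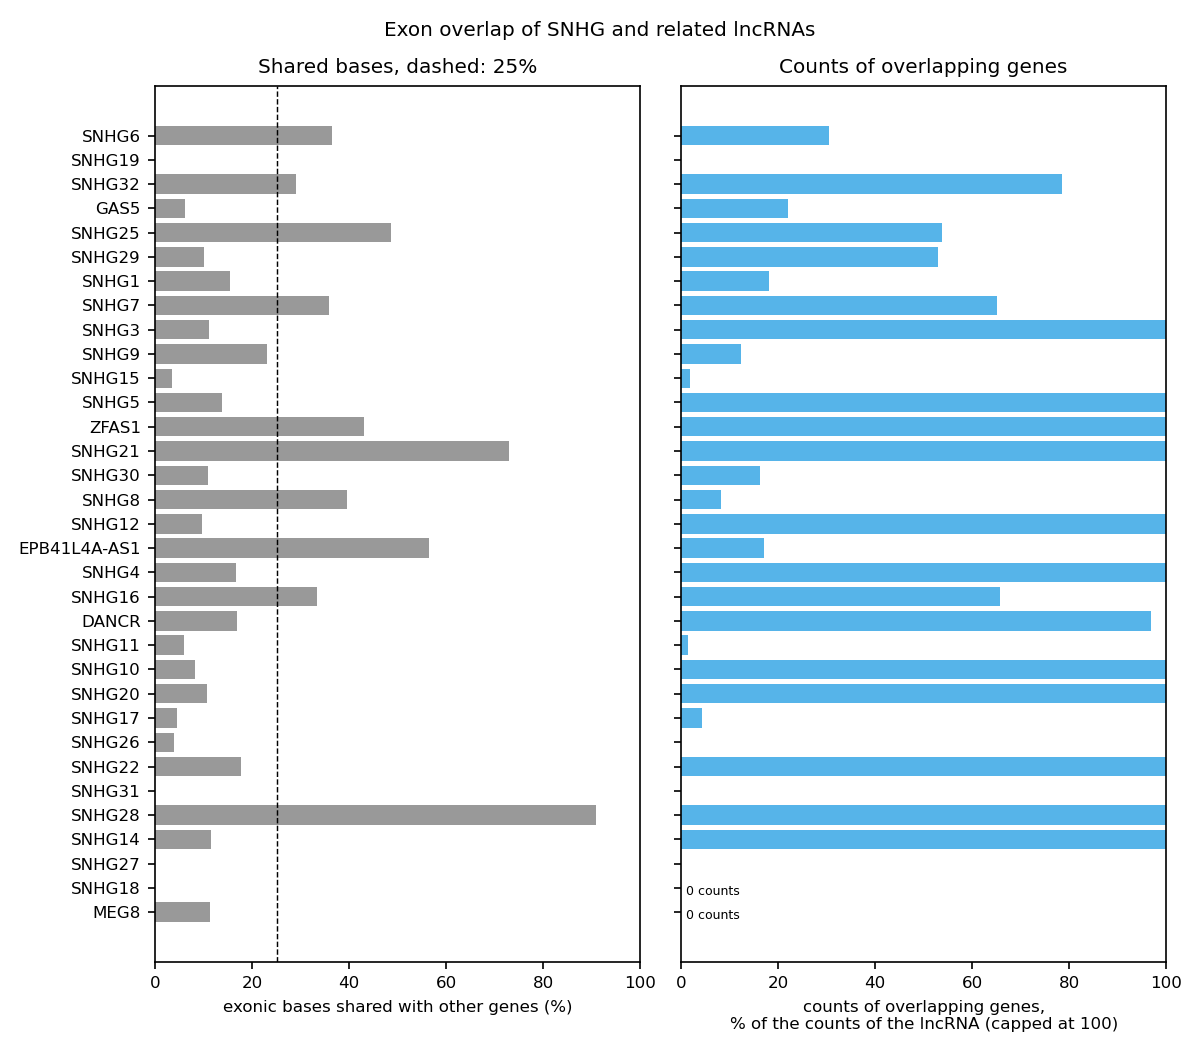
Percent of exonic bases each host shares with any other gene (left, dashed line at 25%) and the summed counts of the overlapping genes as a percent of the host's own counts, mean of both libraries, capped at 100 (right). Hosts are ordered by mean TPM. Shares of 25% or more are spread along the whole order, and in the right panel 11 bars reach the cap while the bars of SNHG15, SNHG11 and SNHG17 are short.

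Genes that lie wholly inside host exons show where within a host the counts fell. There were 104 such pairs, 48 with counts in replicate 1, and the inner gene exceeded its host in 0 of them in either library. Among 46 pairs with counts in hosts of 50 or more counts in each library, 38 were snoRNA or scaRNA entries, which held a median of 1.70% of the host's counts on a median of 2.71% of its exonic bases. The loci of SNORA16A, SNORA17A, SNORA17B and SNORA50C each stand there as 2 entries, so the 38 are not all separate genes. In 28 of the 38 entries the share of counts was below the share of bases. The other 10 included SNORA61, with 279 and 253 counts (26.6% and 21.7% of the counts of SNHG12), and SNORD49B, with 397 and 567 counts (5.0% and 5.99% of those of SNHG29). They also included SNORD22, described with SNHG1 below, and SCARNA13, with 44 and 50 counts (7.97% and 8.96% of those of SNHG10 on 5.06% of its bases). A fragment may be counted for a short entry that it only partly covers, and the host's bases are the union of all its annotated exons. Equal shares are therefore a reference and not an expected value.

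The strongest inner signals were not snoRNAs. ZFAS1 holds 2 short entries typed as miscellaneous RNA in GENCODE 29, ENSG00000274760 (chr20:49279116-49279208, plus strand, 93 bases) and ENSG00000277967 (chr20:49280485-49280571, plus strand, 87 bases). Their sequences are shown because their counts are high beside those of ZFAS1, on a small part of its merged exonic bases. They carry no capitals because no motif was searched in them.
ENSG00000274760: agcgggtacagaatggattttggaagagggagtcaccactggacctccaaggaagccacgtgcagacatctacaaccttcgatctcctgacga
ENSG00000277967: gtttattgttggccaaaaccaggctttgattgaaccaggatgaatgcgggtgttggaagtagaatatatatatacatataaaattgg

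ENSG00000274760 had 2855 counts (80.9% of those of ZFAS1) in replicate 1 and 3082 counts (87.3%) in replicate 2, on 1.12% of its exonic bases. ENSG00000277967 had 2266 counts (64.2%) in replicate 1 and 2556 counts (72.4%) in replicate 2, on 1.05% of the bases. Both shares were high in both libraries. The counts of these entries sum to more than those of ZFAS1, so they were not separate parts of them. Another such entry in ZFAS1, ENSG00000277830 of 198 bases, had 12 and 14 counts, which was 0.340% and 0.396%. If fragments were counted for each gene they touch, most counts of ZFAS1 came from fragments touching these 2 stretches of its 8315 exonic bases. Those bases are the union of all annotated exons, and the longest annotated transcript of ZFAS1 has 1075 bases. A fragment touching a short entry may also extend beyond it. The shares of bases therefore do not show that counts were concentrated within a transcript. In DANCR, ENSG00000286161, a 556-base gene on the opposite strand, had 614 counts (43.7% of those of DANCR) in replicate 1 and 650 counts (52.0%) in replicate 2. Whether these came from DANCR or from the opposite strand cannot be told apart.

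**Figure D4:**
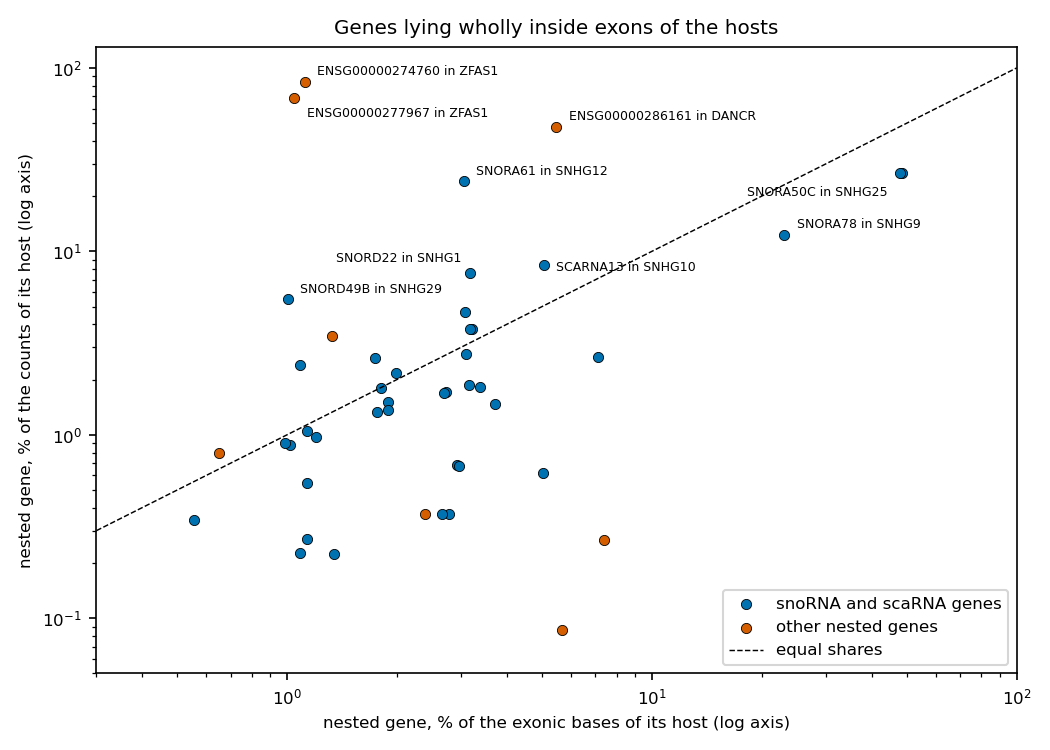
Share of the host's counts (vertical, mean of both libraries) against share of the host's exonic bases (horizontal) for 46 genes lying wholly inside host exons, on log axes, with the dashed line at equal shares. The 2 ZFAS1 entries stand at the top left, near 1% of the bases, and 28 of the 38 snoRNA and scaRNA genes lie below the line. The unlabelled point touching SNORA50C is a second entry for the same locus.

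Detection of snoRNA genes as features of their own differed between the arrays and the other hosts. Genes with a SNORD, SNORA or SCARNA symbol were taken. The files list 180 within 31 of the hosts, and 25 (13.9%) reached 1 CPM in both libraries, against 101 of all 553 such genes in the files (18.3%). The arrays of SNHG14 and MEG8 hold 124 of them, of which 0 were detected, and in the other hosts 25 of 56 were (44.6%). In those other hosts 22 of 38 that lie inside host exons were detected, 2 of 15 that lie outside them and 1 of 3 that lie partly inside. SNORA16A and SNORA17B are each listed there as 2 entries of the same locus, and each entry was counted. Entries typed as snoRNA without such a symbol were left out. Among them are ENSG00000281311 in SNHG25 (128 and 118 counts) and ENSG00000281808 in SNHG7 (55 and 62 counts). The numbers detected thus depend on naming. Reads of the host that run through an exon may be counted there too, so a count inside an exon does not show a separate snoRNA. The 2 outside exons were SNORD104, in the intron of SNHG25, with 231 counts in each library, and SNORD60, in the intron of SNHG19, with 42 and 67 counts. The snoRNA genes that RefSeq places in GAS5 were not analysed here.

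Within SNHG1 the 7 SNORD entries together had 595 counts in replicate 1 and 771 in replicate 2. The highest was SNORD22 with 271 and 305 counts (7.01% and 8.25% of those of SNHG1), a symbol that the tables used give to 2 genes there. SNORD25 had 77 and 120 counts, and SNORD27 had 46 and 89. In SNHG29 SNORD49A had 48 and 113 counts, far fewer than the 397 and 567 of SNORD49B. SNORA50C, inside the second exon of SNHG25, had 128 and 118 counts, which was 28.7% and 25% of those of its host. All 7 SNORD entries in SNHG1 and all 3 in SNHG29 had more counts in replicate 2. Their hosts moved in different directions, SNHG29 higher and SNHG1 lower.

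The first bases of the hosts were read from the RefSeq promoter table (GRCh38.p14), which holds 28 of the 33 genes. SNHG6, SNHG15, SNHG25, SNHG9 and MEG8 are not among them. Each run shows 10 bases before and 20 bases after the annotated start, with capitals on a C followed by 4 or more C or T when that C lies within 5 bases of the start. They are shown because transcripts of the 5′ terminal oligopyrimidine class begin with such a run, and GAS5 is added as a host without one at this start. The search is looser than that class. The run of SNHG8 starts 5 bases before the annotated start and that of SNHG16 starts 5 bases after it. A run found here therefore does not place a host in the class. The windows are SNHG19 (chr16:2155339-2155368, minus strand), SNHG32 (chr6:31834906-31834935, plus), SNHG5 (chr6:85678714-85678743, minus), ZFAS1 (chr20:49278632-49278661, plus), SNHG12 (chr1:28581854-28581883, minus), SNHG8 (chr4:118278752-118278781, plus), SNHG16 (chr17:76557754-76557783, plus) and GAS5 (chr1:173869026-173869055, minus).
SNHG19: ccgcccctgtCTTTTCggggtcgagtccga
SNHG32: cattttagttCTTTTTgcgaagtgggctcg
SNHG5: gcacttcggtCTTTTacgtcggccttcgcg
ZFAS1: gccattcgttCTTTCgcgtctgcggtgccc
SNHG12: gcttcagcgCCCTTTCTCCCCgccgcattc
SNHG8: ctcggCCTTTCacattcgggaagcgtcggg
SNHG16: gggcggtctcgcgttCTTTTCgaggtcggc
GAS5: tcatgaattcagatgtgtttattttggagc

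Such a run was found in 13 of the 28 hosts (46.4%) and in 11 of 23 detected hosts (47.8%). It was found in 7408 of all 35116 promoters (21.1%), in 21.6% of those of other detected lncRNA genes, and in 20 of 36 promoters of protein-coding snoRNA hosts (55.6%). In SNHG19, SNHG32, SNHG5 and ZFAS1 the run began exactly at the start. The start annotated in RefSeq differs from that of the files by 0 bases in SNHG19 and SNHG16, 53 in SNHG8, 163 in GAS5, 199 in SNHG5, 308 in SNHG32, 464 in ZFAS1 and 1259 in SNHG12, so a missing run says only that these letters are not in this window. These libraries do not map transcript starts.

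Several hosts lie head to head with another gene whose start is within 1000 bases. There were 11 such hosts, and 7 of their neighbours are named below. SNHG1 starts 51 bases from SLC3A2, the heavy chain of an amino acid transporter, which had 6061 and 7075 counts. SNHG9 starts 118 bases from RPS2, a ribosomal protein gene, which had 139917 and 163754 counts, or 442 times the CPM of SNHG9. GAS5 starts 800 bases from ZBTB37, which had 117 and 122 counts and so was far below its neighbour. ZFAS1 starts 248 bases from ZNFX1 (525 and 431 counts), and SNHG19 starts 340 bases from TRAF7 (1043 and 1150 counts). SNHG22 stayed at 12 counts in each library beside ACAA2, an enzyme of mitochondrial fatty acid oxidation, with 641 and 658 counts 70 bases away. SNHG18 and SEMA5A, whose starts are 125 bases apart, both had 0 counts. Neighbours were above the host in some of these pairs and below it in others.

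The 2 libraries were compared for the hosts as log2 of replicate 2 over replicate 1, scaled with trimmed mean of M values (TMM) factors, where the mean count was at least 50. With 1 library on each side this difference has no replicate check. Of 27 hosts in this set 1 was lower by 1 log2 or more in replicate 2, against 1.92% of 14704 genes, and 0 were higher by that much, against 0.143%. That host was SNHG14, whose counts of 114 and 38 gave a log2 ratio of -1.55. Because SNHG14 shares 1822 bases with UBE3A on the opposite strand (605 and 410 counts), how many of these counts are its own cannot be told apart. The next lowest were SNHG26 at -0.66, SNHG19 and SNHG4 at -0.37 and SNHG3 at -0.33, and the highest was SNHG32 at 0.28. The median log2 ratio of the hosts was 0.0018 (0.00039 for all genes), and 25 of 27 lay within 0.5 log2 (92.6%), against 88.3% of all genes and 82.7% of lncRNA genes.

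Read against counting error alone, 12 of the 27 hosts (44.4%) had binomial intervals that did not overlap between the libraries, against 32.4% of all genes. In 9 of them replicate 2 was lower (33.3%, against 20.5% of all genes), and these were SNHG14, SNHG19, SNHG4, SNHG3, SNHG30, DANCR, SNHG6, SNHG5 and SNHG1. In 3 of them, SNHG7, SNHG29 and SNHG32, replicate 2 was higher (11.1%, against 11.9%). Such intervals narrow relative to the level as counts rise. Detected hosts had a median of 50.2 CPM against 17.6 CPM for all detected genes, and the part of this in the shares was not tested. GAS5 had 495 CPM (485 to 506) in replicate 1 and 498 CPM (487 to 508) in replicate 2, so its intervals overlap almost fully. Across genes, the log2 ratio rose with transcript GC content, with Spearman's rho of 0.43 over the 27 hosts and 0.43 over all genes with a GC value. The genes share the same 2 libraries and this is a description. After centring on GC content SNHG14 stayed at -1.53, and the part of GC content in the other differences was not tested.

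**Figure D5:**
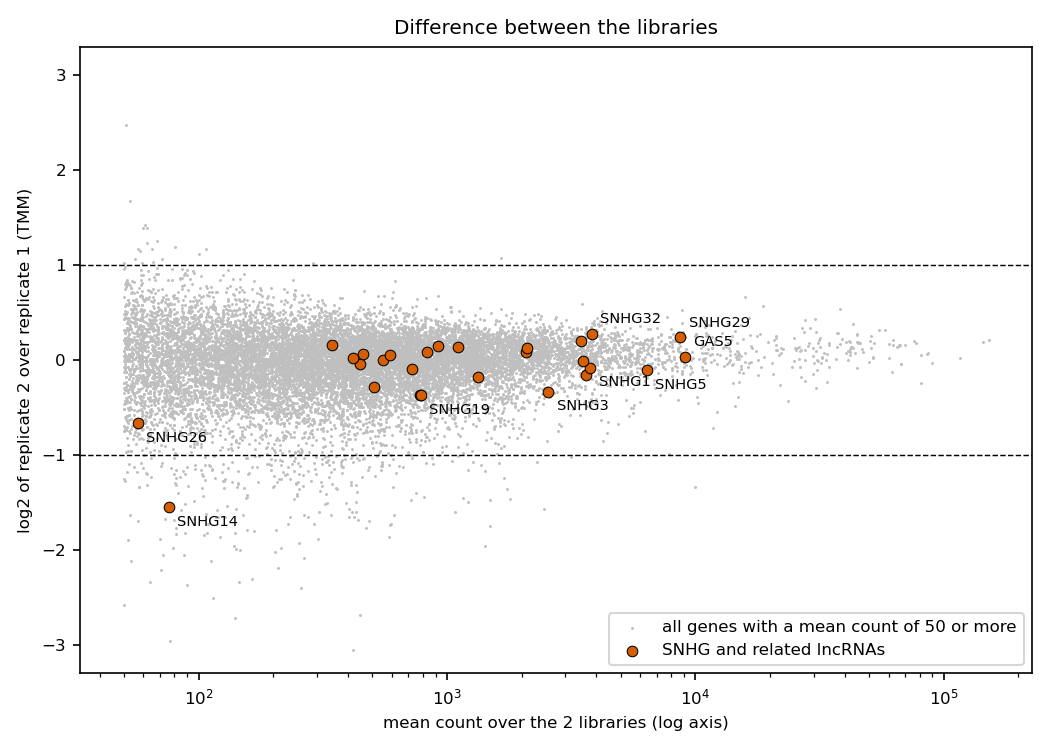
Log2 of replicate 2 over replicate 1 against mean count on a log axis for the 27 hosts (large points) and all genes whose mean count was at least 50 (small points), with dashed lines at 1 log2 either way. Most hosts sit within 0.5 log2 of 0, and SNHG14 at -1.55 lies below the lower line.

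Genes that act with the hosts were expressed beside them. All 19 snoRNP proteins and assembly factors were detected, with a median of 77.6 TPM. The highest were NOP10 (587 ± 38.0 TPM) and NHP2 (512 ± 13.3 TPM), both core proteins of H/ACA particles, and the lowest were NUFIP1 (5.74 ± 1.20 TPM) and NOPCHAP1 (1.34 ± 0.133 TPM), which act in box C/D particle assembly. Of 9 factors of intron debranching and snoRNA end trimming 9 were detected, with a median of 15.6 TPM. They ran from the exonuclease XRN2 (51.7 ± 8.55 TPM) and the deadenylase TOE1 (31.3 ± 1.54 TPM) to TENT4B (2.66 ± 1.34 TPM) and XRN1 (2.57 ± 0.969 TPM). All 16 factors of nonsense-mediated decay were detected, with a median of 12.2 TPM. RBM8A (119 ± 8.0 TPM) and MAGOH (102 ± 8.17 TPM), both of the exon junction complex, were highest, and SMG6 (2.88 ± 0.166 TPM) and NBAS (2.01 ± 0.130 TPM) were lowest.

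By median level the hosts stood between the lists of protein-coding hosts and of other lncRNAs. Protein-coding snoRNA hosts, most of which encode ribosomal proteins, were all detected (35 of 35), had a median of 896 TPM and took 6.94% and 7.19% of counts, against 0.324% and 0.322% for the 33 hosts. In that list RPS12 (8170 ± 14.3 TPM) and RPS2 (7008 ± 412 TPM) were highest, and PPAN (52.0 ± 3.28 TPM) and TAF1D (25.3 ± 4.64 TPM) were lowest. A hand-picked list of other well-known lncRNAs had a median of 4.72 TPM with 26 of 28 detected. Within that list HOTAIRM1 (104 ± 21.4 TPM) and FGD5-AS1 (41.9 ± 6.04 TPM) were highest, with KCNQ1OT1 (0.0608 ± 0.00107 TPM) and MEG3 (0 counts) at the low end. Over all 33 hosts, undetected ones included, the median was 28.6 TPM.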

How the data were processed

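RNA of 2 untreated HEK293T libraries was sequenced. The authors deposited 1 table of raw counts per gene and library, with gene coordinates, exon blocks and length, per the file headers. Per the submitters' processing notes, build GRCh38, featureCounts 2.0.3, bcl2fastq 2.17 and Trim Galore 0.6.7 were used. Not given in the sources used here are the aligner, annotation release, strand and overlap settings.

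Of 60664 gene IDs 60463 matched a symbol. Every host, and the 2 highest and 2 lowest genes of each comparison list, are named. CPM used library totals, TPM the deposited merged exon length. Detection required at least 1 CPM in each library. Exon overlap was computed with bedtools 2.31.1. Log2 ratios used edgeR 4.0.16 (TMM, prior count of 2) where the mean count was at least 50, and this step was tested on simulated data. DESeq2 1.42.0 size factors, library totals, other thresholds, other lengths, GC centring, mitochondrial counts, overlapping hosts left out and single libraries were alternatives. Gene types and transcripts came from GENCODE 29, start sequences from RefSeq. The rule for the hosts uses symbols only, but the hosts and lists were chosen with earlier results of these data known. With 1 group, no p-value is given.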

Additional observations from a re-analysis of the deposited data

How the results depend on the processing

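No paired analysis was possible because both libraries belong to 1 group. The number of detected hosts was 27 with either library alone, 28 at 0.5 CPM, 25 at 5 CPM, and 18 of 23 without hosts sharing at least 25% of exonic bases. The hosts' share of counts, 0.323%, was 0.218% without those overlapping hosts, 0.331% without mitochondrial counts, and 0.322% to 0.324% with 1 library left out. Their median level, 28.6 TPM, was 47.1 TPM with the longest transcript as length, 46.4 TPM with the longest transcript without retained introns (added after the data were seen), 42.8 as CPM, 14.5 TPM without overlapping hosts, 46.9 TPM over detected hosts, and 28.1 to 29.1 TPM with 1 library left out. The 1 host past 1 log2, SNHG14, was outside the set at a mean count of 200 or more, leaving 0. The median log2 ratio was -0.029 with library totals, 0.024 at a mean count of 200 or more, -0.039 after GC centring and -0.085 without overlapping hosts, each below the 0.14 median size of single ratios. Ratios cannot be formed with 1 library left out. Of 81 single-host ratios under other scalings, 81 stayed on the same side of the 1 log2 threshold. Direction was not part of that check, and some small ratios changed sign. That of SNHG11 was 0.052 with TMM factors and -0.063 after GC centring. Where the smaller set of hosts is not itself the cause, the cause was not tested. Depth limits SNHG31, SNHG28, SNHG27, SNHG18 and MEG8, whose counts are between 0 and 5.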
